A study of Mus musculus with 15 samples.

Results

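The regulated release of insulin granules uses much of the machinery that neurons use to release synaptic vesicles. The 9 genes described here encode parts of it: the active zone scaffolds and docking or priming factors piccolo (Pclo), bassoon (Bsn), Rims2, Erc1 and Unc13a, the SNARE proteins syntaxin 1A (Stx1a), Snap25 and Vamp2, and the calcium sensor synaptotagmin 7 (Syt7). They were taken by gene symbol out of 23699 gene lines measured in RNA-seq libraries of sorted mouse islet cells, and each was listed once, with a usable estimate in all 15 libraries. The set was put together with a result of these libraries in view, a higher Pclo level in control ALDH+ cells. The contrasts of ALDH+ with ALDH- cells are therefore given as a description with no test.

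Islet cells carrying a cre-activated red fluorescent protein (RFP, from a Rosa26-Tomato reporter) were sorted by their aldehyde dehydrogenase activity with the fluorescent substrate aldefluor. The RFP+ALDH- gate was taken by the study as healthy beta cells and the RFP+ALDH+ gate as dysfunctional beta cells. Control mice were triple heterozygous for Foxo1, Foxo3 and Foxo4 by the sample labels, while the methods of the study also describe controls with no floxed Foxo allele, and knockout mice lacked all 3 genes in the cells that expressed cre. Controls gave 3 ALDH- and 2 ALDH+ libraries, and knockouts gave 5 of each class. Of these 15, 9 came from RIP-Cre animals (2 and 1 control, 3 and 3 knockout libraries, ALDH- first) and 6 from Pdx-Cre animals (1 and 1, 2 and 2). RIP-Cre is driven by an insulin promoter and is active in beta cells. Pdx-Cre is active in pancreatic precursors, so that RFP can also mark other pancreatic lineages. The animals had a mixed 129J-C57BL/6 background. The methods give an age of 6 months and 10 to 20 animals per genotype for the RIP-Cre sort, and do not give these for the Pdx-Cre libraries.

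Piccolo and bassoon are giant proteins that organise the presynaptic active zone, and piccolo also acts in beta cells as a partner of the Rims2 protein. The Rims2 protein links granule-bound Rab3 to the release site. The Unc13a protein primes granules by opening syntaxin, and the Erc1 protein (ELKS) binds Rim proteins at the docking site. Syntaxin 1A and Snap25 on the plasma membrane assemble with Vamp2 on the granule into the SNARE complex that drives fusion, and synaptotagmin 7 couples calcium entry to that fusion.

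The genes differ widely in the size of their transcripts. Lengths of the longest annotated coding transcript (GENCODE M21) were 20084 bases for Pclo, 15938 for Bsn, 10255 for Unc13a, 8760 for Erc1, 6624 for Syt7 and 4800 for Rims2. The SNARE transcripts were shorter, at 2205 bases for Vamp2, 2162 for Stx1a and 2116 for Snap25. In the mm9 coordinates of the deposited tables, Pclo lies on chromosome 5 from 14514918 to 14863459, Rims2 on chromosome 15 from 39029832 to 39515918 and Unc13a on chromosome 8 from 74150612 to 74195656. Snap25 lies on chromosome 2 from 136539186 to 136608164, and Vamp2 on chromosome 11 from 68902030 to 68905883, the shortest span of the 9 genes.

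RefSeq promoter windows (GRCm38.p6) were matched by symbol for 5 of the 9 genes, Pclo, Unc13a, Erc1, Stx1a and Bsn. Rims2, Snap25, Vamp2 and Syt7 were not matched. The 250 bases upstream of the start site are printed for Pclo and Unc13a, the scaffold genes whose levels differed most between the cre drivers and in opposite directions. Both lines read 5′ to 3′ on the strand of the gene, and capitals mark the GC box, the letters GGGCGG or, on the other strand, CCGCCC.
Pclo, chr5:14514668-14514917, plus strand: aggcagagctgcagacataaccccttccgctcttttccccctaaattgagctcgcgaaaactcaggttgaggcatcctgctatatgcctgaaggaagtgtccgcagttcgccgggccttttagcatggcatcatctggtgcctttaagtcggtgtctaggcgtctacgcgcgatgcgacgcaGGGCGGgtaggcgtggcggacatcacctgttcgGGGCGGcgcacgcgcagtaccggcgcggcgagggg
Unc13a, chr8:71671758-71672007, minus strand: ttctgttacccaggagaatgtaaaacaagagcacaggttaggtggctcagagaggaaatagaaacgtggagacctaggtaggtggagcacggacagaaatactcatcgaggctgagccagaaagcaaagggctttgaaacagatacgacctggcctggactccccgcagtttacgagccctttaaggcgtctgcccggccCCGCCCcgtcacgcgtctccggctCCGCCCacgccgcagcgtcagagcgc

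The Pclo and Unc13a windows each held 2 GC boxes, as did that of Erc1, while that of Stx1a held 1 and that of Bsn none. GC content of the window was 61.2% for Pclo and 58.0% for Unc13a. A GC box was found in 32.7% of 32851 promoter windows of this length. The letters GTAAACA of the Foxo binding motif, searched on both strands, were in none of the 5 windows and in 3.17% of all windows. The cAMP response element TGACGTCA was likewise in none of the 5, against 1.55% of all windows.

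Levels were read as FPKM, fragments scaled to transcript length and to the size of the library, which can be compared between genes. Over the 15 libraries Snap25 was the highest of the 9 genes at 349 ± 86.7 FPKM (mean ± SD, n = 15), followed by Vamp2 at 124 ± 23.2. Syt7 (56.1 ± 10.2) and Pclo (54.2 ± 25.3) came next and did not differ beyond their spread, since Syt7 was the higher in 9 of 15 libraries. The other scaffolds were lower, with Unc13a at 15.5 ± 4.96, Rims2 at 11.1 ± 3.01 and Erc1 at 8.89 ± 2.94. Unc13a was above Rims2 in 11 of 15 libraries and Rims2 above Erc1 in 11 of 15, so this order was not the same in all libraries. Bsn (3.62 ± 1.14) and Stx1a (1.75 ± 1.10) were the lowest. All 9 genes passed the minimum mean of 1 FPKM, which left 11253 genes for the tests. By the fragment numbers that the deposited confidence intervals imply, Stx1a rested on 7 to 67 fragments per library, against 4190 to 9050 for Snap25 and 3519 to 19626 for Pclo, so that differences in Stx1a were the least precise.

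**Figure D1:**
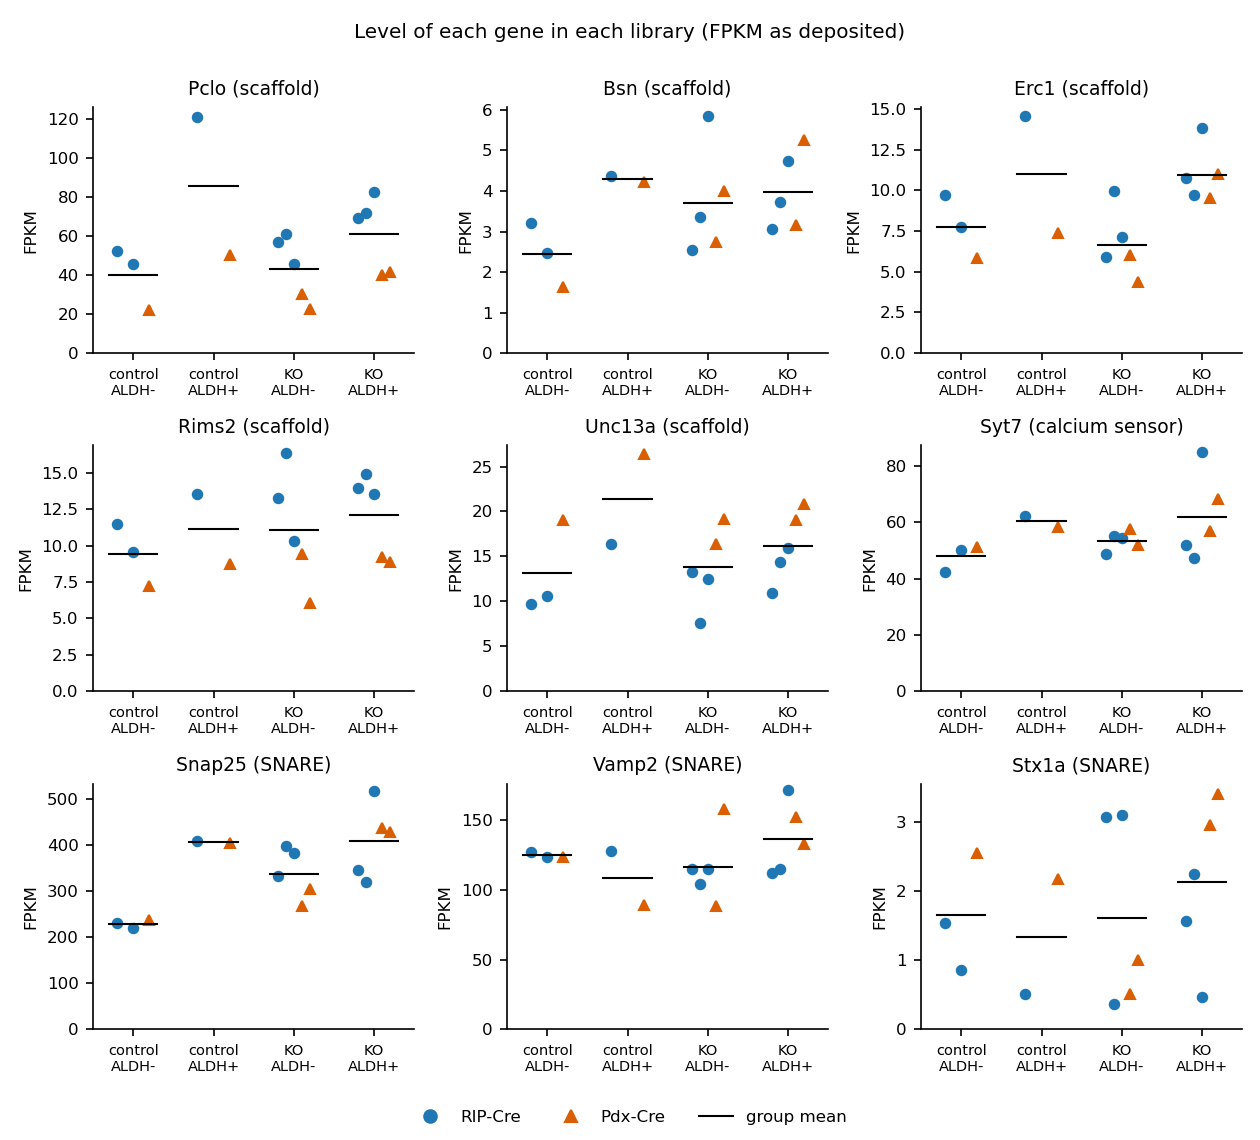
Level of each of the 9 genes in FPKM (linear axes from 0) in every library, by genotype and ALDH class, with circles for RIP-Cre, triangles for Pdx-Cre and lines for group means. The Pdx-Cre triangles lie below the RIP-Cre circles for Pclo within each ALDH class and above them for Unc13a, while Snap25 is at 220 to 237 FPKM in the 3 control ALDH- libraries and at 267 or more in all others.

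Of the Foxo genes, Foxo1 stood at 12.0 to 20.1 FPKM in the 5 control libraries and at 0.0925 to 4.25 in the 10 knockout libraries, without overlap. Foxo4 was listed at 0 to 1.34 FPKM in controls and at 0 to 0.0669 in knockouts, and Foxo3 at 12.7 to 23.0 and 9.78 to 30.6. A value over the whole Foxo3 gene can hold exons outside the deleted part and so does not check that deletion. Aldh1a3, the dehydrogenase behind the aldefluor gate, was at 0.490 to 4.09 FPKM in ALDH- and 22.1 to 76.9 in ALDH+ libraries. Of the 7 beta cell markers with a usable value, Iapp was at 33200 FPKM or more and G6pc2 at 313 or more in all libraries, while Mafa was low, at 2.32 to 13.9 FPKM in RIP-Cre and 0.434 to 2.51 in Pdx-Cre libraries. Neurons also express active zone genes, and markers of neurons and Schwann cells were at or near 0: Sox10 and Gfap in all 15 libraries, and Slc17a6, Slc17a7 and Nefl in 14 of 15. The summed level of the 5 neuronal markers was 0.631 to 4.42 FPKM in RIP-Cre and 1.41 to 11.4 in Pdx-Cre libraries, with Nefm as its main part.

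Pclo was higher in ALDH+ than in ALDH- cells of both genotypes. In RIP-Cre controls the ALDH- libraries held 52.2 and 45.5 FPKM and the ALDH+ library 121, and in Pdx-Cre controls the values were 22.3 and 50.4. In RIP-Cre knockouts it was at 56.8, 61.0 and 45.8 FPKM in ALDH- cells and at 69.5, 71.8 and 82.5 in ALDH+ cells. In Pdx-Cre knockouts the values were 30.2 and 22.8 in ALDH- cells and 40.2 and 41.5 in ALDH+ cells. Within each cre driver, every ALDH+ library thus lay above every ALDH- library, a pattern that 0.782% of the genes tested showed in this direction. The fitted log2 fold change, on log2(FPKM + 1) of rescaled values with the cre driver as a term, was 1.17 ± 0.19 (SE) in controls, or 2.25-fold, and 0.53 ± 0.13 in knockouts, or 1.44-fold. Over all genes, 1.22% passed the adjusted threshold of 0.05 of limma in controls (0.462% upward) and 0.0178% in knockouts. Since the choice of the 9 genes used this contrast, nothing is read from their own calls. With 1 library left out, the log2 fold change of Pclo in controls was 1.02 to 1.30. Some cell type markers moved with the ALDH class as well. The summed level of the 7 usable beta cell markers was 83990 to 127900 FPKM in the 3 control ALDH- libraries and 35370 and 71480 in the control ALDH+ libraries, without overlap, and 89370 to 115800 and 44370 to 99450 in knockouts. Iapp made up most of this sum, with a log2 fold change of -1.16 ± 0.66 in controls. The other control estimates went both ways. They were -0.30 for G6pc2, -0.15 for Slc2a2, 0.01 for Ucn3, 0.22 for Pdx1, 0.36 for Nkx6-1 and 0.52 for Mafa. Ppy, the marker of PP cells, had a log2 fold change of -2.04 ± 0.74 in controls and -2.15 ± 0.51 in knockouts. The summed level of the 4 alpha cell markers was 157 to 5829 FPKM in ALDH+ and 672 to 35850 in ALDH- libraries. The sum of the 6 acinar markers was 0.0576 and 178 FPKM in the control ALDH+ libraries and 1.79 to 15.7 in the control ALDH- libraries. The part of these cell types in the ALDH differences was not tested.

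The other long scaffolds showed smaller differences with ALDH activity. Erc1 in knockouts was at 5.91, 9.94, 7.12, 6.02 and 4.34 FPKM in ALDH- cells and at 10.7, 9.70, 13.8, 9.50 and 11.0 in ALDH+ cells, so that the groups overlapped only between the highest ALDH- library and the lower ALDH+ libraries, and the log2 fold change was 0.68 ± 0.20. In controls Erc1 was at 9.71, 7.74 and 5.86 FPKM in ALDH- cells and at 14.6 and 7.40 in ALDH+ cells (log2 fold change 0.44 ± 0.29). Bsn in controls was at 3.21, 2.47 and 1.63 FPKM in ALDH- cells and at 4.38 and 4.22 in ALDH+ cells, which did not overlap (0.65 ± 0.36). In knockouts Bsn ranged from 2.53 to 5.86 FPKM in ALDH- cells and from 3.05 to 5.25 in ALDH+ cells (0.12 ± 0.25). The log2 fold changes of Unc13a were 0.54 ± 0.26 in controls and 0.26 ± 0.18 in knockouts, and those of Rims2 were 0.28 ± 0.25 and 0.16 ± 0.17. All 5 scaffolds had a positive estimate in both genotypes, with a median of 0.54 in controls and 0.26 in knockouts, against medians of -0.03 and -0.01 over all genes tested, but that of Bsn in knockouts turned negative once a length trend was removed (-0.14).

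In controls the SNARE transcripts did not move together. Snap25 was at 232, 220 and 237 FPKM in control ALDH- cells and at 409 and 404 in control ALDH+ cells, groups of only 3 and 2 libraries. The log2 fold change of Snap25, at 0.79 ± 0.23, was the largest of the 9 genes after that of Pclo. Vamp2, a SNARE transcript of like length, was at 127, 123 and 123 FPKM in control ALDH- cells and at 128 and 89.3 in control ALDH+ cells, with a log2 fold change of -0.25 ± 0.26. Within a library the ratio of Snap25 to Vamp2, which needs no scaling between libraries, was 1.78 to 1.93 in the 3 control ALDH- libraries and 3.20 and 4.52 in the control ALDH+ libraries. This ratio uses the control ALDH contrast known when the genes were chosen, so it too is a description. In knockouts Snap25 was at 334, 398, 384, 267 and 304 FPKM in ALDH- cells and at 346, 321, 518, 436 and 428 in ALDH+ cells, and the groups overlapped (0.29 ± 0.16). There the ratio was 1.93 to 3.82 in ALDH- cells and 2.80 to 3.23 in ALDH+ cells. The knockout log2 fold changes of Vamp2 (0.25 ± 0.18) and Stx1a (0.33 ± 0.40) were close to that of Snap25. In knockouts the median of the 3 SNARE genes was thus 0.29, against 0.26 for the 5 scaffolds. These medians of a few genes take no account of transcript length, and a difference between the 2 kinds of gene was not tested. Stx1a was at 0.509 and 2.18 FPKM in the control ALDH+ libraries, a range as wide as that of its ALDH- libraries (0.864 to 2.55), with a log2 fold change of -0.31 ± 0.58. Syt7 was at 42.5 to 51.4 FPKM in control ALDH- cells and at 62.2 and 58.3 in control ALDH+ cells (0.28 ± 0.23). Pclo, Bsn, Snap25 and Syt7 were the 4 of 9 genes whose control groups of 3 and 2 libraries did not overlap upward, a pattern of 14.1% of all genes.

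Transcript length moved with ALDH class across all genes. Over 11136 genes with a known length, the Spearman correlation of the log2 fold change with length was 0.39 in controls and 0.25 in knockouts, across genes that share the same libraries and are not independent replicates. In controls the median log2 fold change was -0.59 for transcripts under 1000 bases, -0.10 for 2000 to 3000 bases, the class of all 3 SNARE transcripts, and 0.44 for 10000 bases or more, the class of Pclo, Bsn and Unc13a. In knockouts the same medians were -0.27, -0.04 and 0.23. Bsn and Unc13a therefore lay inside the interquartile range of their length class in controls, while Pclo and Snap25 lay above it. After removal of a smooth length trend from every library, the control log2 fold change of Pclo was 0.57 ± 0.16, that of Bsn 0.12 ± 0.38 and that of Unc13a 0.18 ± 0.27, and that of Snap25 was 0.93 ± 0.23. In knockouts Pclo was then at 0.23 ± 0.11, Erc1 at 0.53 ± 0.19, Rims2 at 0.11 ± 0.17, Unc13a at 0.08 ± 0.19 and Bsn at -0.14 ± 0.26. The SNARE genes in knockouts were then at 0.34 ± 0.16 for Snap25, 0.30 ± 0.18 for Vamp2 and 0.38 ± 0.39 for Stx1a. The summed level of 5 nuclear-retained RNAs (Malat1, Neat1, Meg3, Kcnq1ot1 and Snhg11) was 273 to 1623 FPKM in ALDH- libraries and 2056 to 4942 in ALDH+ libraries, without overlap. The part of RNA composition in the Pclo difference was not tested.

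**Figure D2:**
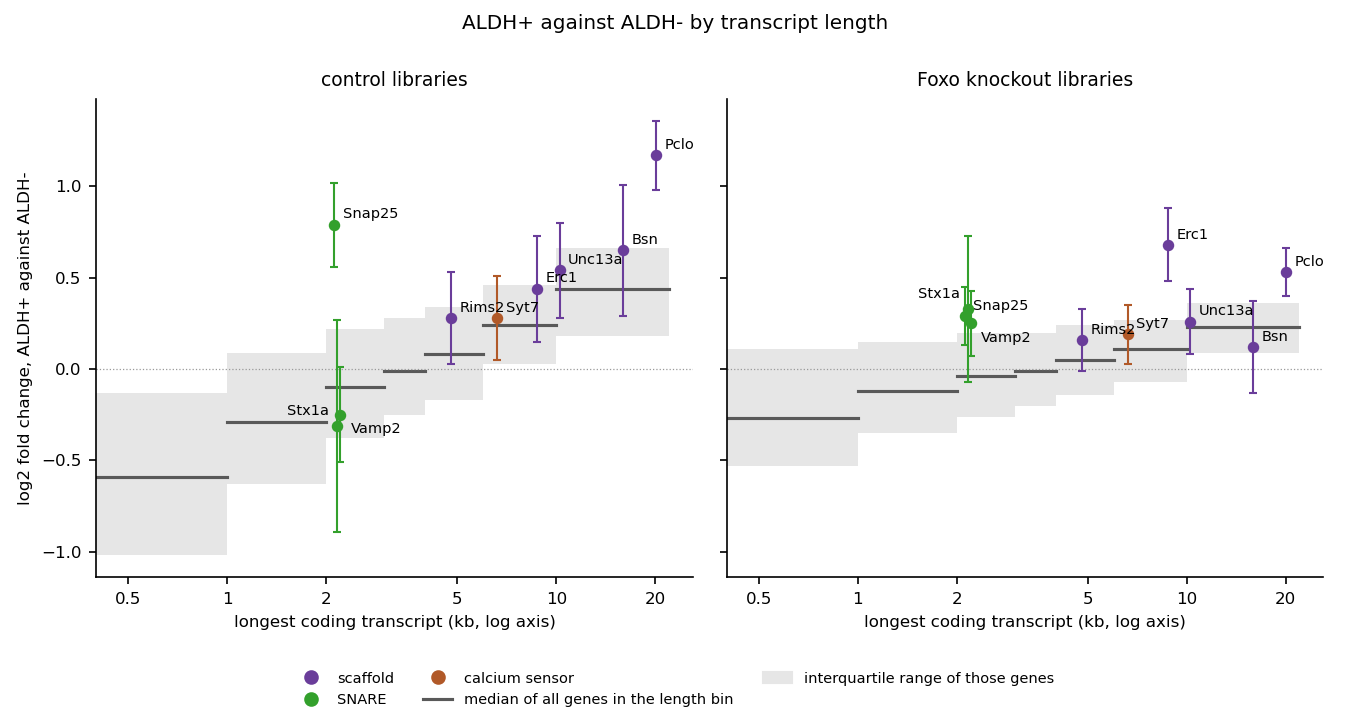
Log2 fold change of ALDH+ against ALDH- (vertical axis) by length of the longest coding transcript in kb (log axis) in control and Foxo knockout libraries. Points with SE bars are the 9 genes, grey lines the median and grey boxes the interquartile range of all genes in each length bin, and Pclo and Snap25 lie above the box of their bin in controls.

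The comparison of knockout with control cells asked whether loss of Foxo1, Foxo3 and Foxo4 altered these transcripts within an ALDH class. None of the 9 genes passed the adjusted threshold in limma, in ALDH- cells (0.0178% of all genes passed), in ALDH+ cells (0%) or for the interaction of genotype with ALDH class (0%). At an unadjusted p under 0.05 the limma counts over all genes were 650, 743 and 476, with 1 of the 9 genes in each. In ALDH- cells that gene was Snap25, whose FPKM was 220 to 237 in the 3 controls and 267 to 398 in the 5 knockouts (log2 fold change 0.53 ± 0.19, adjusted p = 0.776). The same control ALDH- libraries entered the ALDH contrast known when the genes were chosen, so this test is not independent of the choice. The groups did not overlap in deposited FPKM, but after rescaling control replicate 3, at 258, lay above knockout replicate 4, at 255 (1.5% of all genes did not overlap upward here). With RIP-Cre libraries alone the log2 fold change was 0.75 ± 0.24 and with Pdx-Cre libraries alone 0.14 ± 0.32. In ALDH+ cells and in the interaction the gene was Pclo. Both contrasts use the control ALDH+ libraries whose high Pclo level entered the choice of genes, so its values are a description and nothing is read from them. Pclo was at 121 and 50.4 FPKM in control and 40.2 to 82.5 in knockout ALDH+ cells (log2 fold change -0.47 ± 0.17), and the log2 difference between the knockout and control ALDH effects was -0.64 ± 0.23. The corresponding interactions were -0.51 ± 0.28 for Snap25 and 0.51 ± 0.31 for Vamp2. They include the control ALDH contrast that was known when the genes were chosen, so they too are a description. Rims2, Unc13a, Erc1 and Syt7 had genotype log2 differences between -0.27 and 0.20 in both classes, with SE of 0.18 to 0.26, so that differences of about that size were not detectable with these libraries. Much larger ones could be missed as well. Foxo1, one of the deleted genes, had a log2 fold change of -2.54 ± 0.42 in ALDH- cells (adjusted p of limma 0.0604). In ALDH+ cells it was -2.61 ± 0.48 (0.201 in the same test), and neither passed the threshold.

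The cre driver, by contrast, separated some of the scaffolds. Of the 9 genes, 2 were lower and 1 was higher in Pdx-Cre than in RIP-Cre libraries at the adjusted threshold of limma, where 4.05% and 5.68% of all genes passed. All 3 were scaffold or priming genes, from the 5 of that kind, and none of the 3 SNARE genes passed. Among the other exocytosis genes described below, 1 of 12 scaffold genes and 1 of 10 SNARE genes passed, so no effect of role is read from these counts. Pclo was at 22.3 to 50.4 FPKM in the 6 Pdx-Cre libraries (median 35.2) and at 45.5 to 121 in the 9 RIP-Cre libraries (median 61.0), with a log2 fold change of -0.96 ± 0.11 (adjusted p = 7.03e-05). Rims2 was at 6.08 to 9.45 FPKM in Pdx-Cre and 9.59 to 16.4 in RIP-Cre libraries, a log2 fold change of -0.57 ± 0.15 (adjusted p = 0.0218). Its ranges did not overlap in deposited FPKM but touched after rescaling, where the highest Pdx-Cre library was at 9.29 and the lowest RIP-Cre library at 9.24. Unc13a went the other way, at 16.4 to 26.4 FPKM in Pdx-Cre and 7.55 to 16.4 in RIP-Cre libraries (0.69 ± 0.15, adjusted p = 0.00828). Within both ALDH classes taken separately, all Pdx-Cre libraries lay below all RIP-Cre libraries for Pclo and Rims2 (1.77% of all genes) and above them for Unc13a (2% of all genes).

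The ratio of Unc13a to Pclo within a library was 0.473 to 0.856 in Pdx-Cre and 0.124 to 0.272 in RIP-Cre libraries. That of Unc13a to Rims2 was 1.74 to 3.16 and 0.461 to 1.21. Neither pair of ranges overlapped, and these ratios were chosen after the levels were seen. In ALDH- libraries alone the log2 fold change of Pclo was -0.98 ± 0.17 (adjusted p = 0.0238) and in ALDH+ libraries alone -0.95 ± 0.16 (adjusted p = 0.0459). Those of Rims2 were -0.57 ± 0.25 and -0.56 ± 0.19 and those of Unc13a 0.80 ± 0.23 and 0.58 ± 0.20, close to those over all libraries, but neither gene passed in these smaller sets (adjusted p of limma 0.130 to 0.278). Rims2 also missed the threshold without knockout ALDH- replicate 5 (adjusted p = 0.0576) or without knockout ALDH+ replicate 5 (adjusted p = 0.0513).

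**Figure D3:**
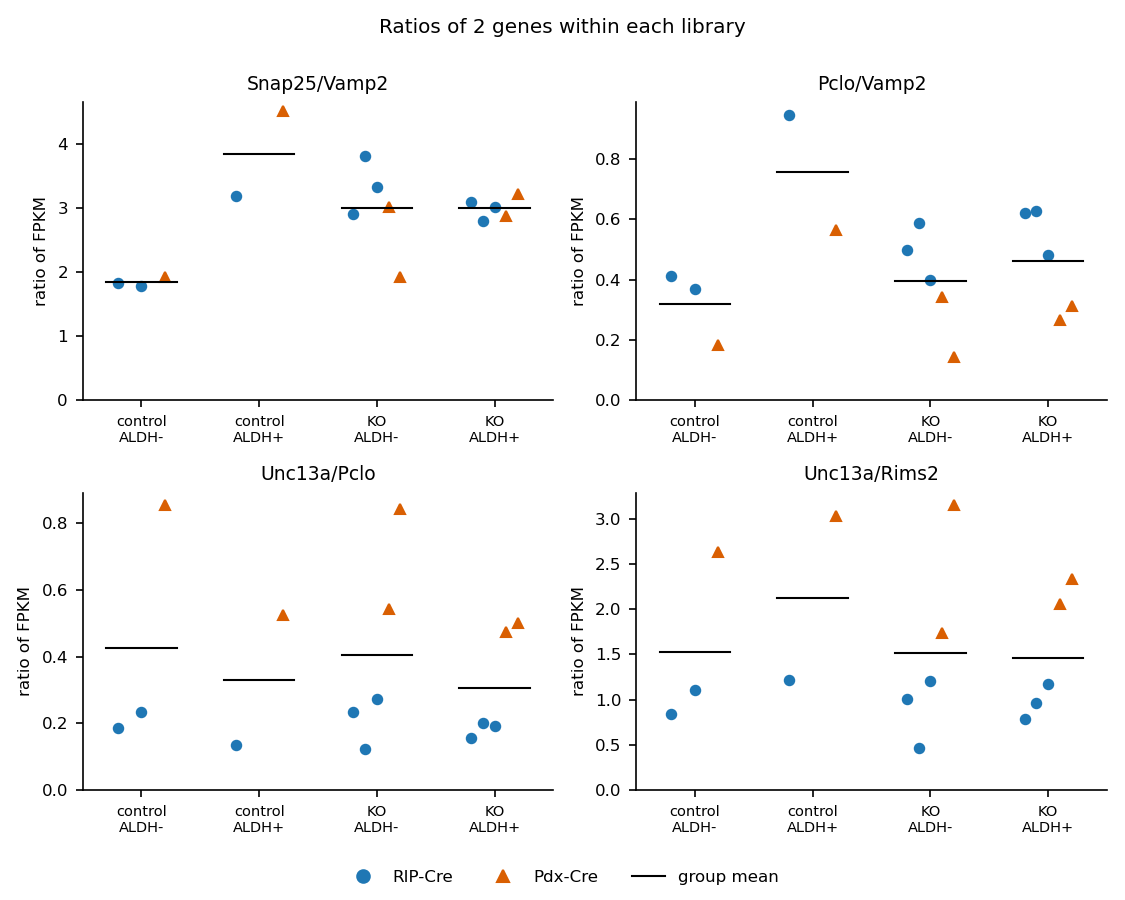
Ratios of FPKM of 2 genes within each library (linear axes from 0), with circles for RIP-Cre, triangles for Pdx-Cre and lines for group means. Snap25/Vamp2 is lowest in the control ALDH- libraries (1.78 to 1.93), and Unc13a/Pclo and Unc13a/Rims2 are higher in every Pdx-Cre than in every RIP-Cre library.

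The remaining genes gave no such separation by cre driver. Erc1 was at 4.34 to 11.0 FPKM in Pdx-Cre and 5.91 to 14.6 in RIP-Cre libraries (log2 fold change -0.38 ± 0.17, adjusted p = 0.163). Snap25 differed by -0.01 ± 0.14 (adjusted p = 0.965), Vamp2 by 0.04 ± 0.15 (0.891 in the same test), Syt7 by 0.11 ± 0.13 and Bsn by -0.08 ± 0.21 on the log2 scale. Stx1a, with the fewest fragments, differed by 0.37 ± 0.34. Over all genes the Spearman correlation of the cre log2 fold change with transcript length was -0.28, and the median was -0.26 for transcripts of 10000 bases or more. Pclo and Unc13a, both in that class, lay on either side of it. With the length trend removed, Pclo was at -0.64 ± 0.09, Rims2 at -0.49 ± 0.14 and Unc13a at 0.91 ± 0.16, and all 3 passed (adjusted p of limma 0.000591, 0.0455 and 0.0023).

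**Figure D4:**
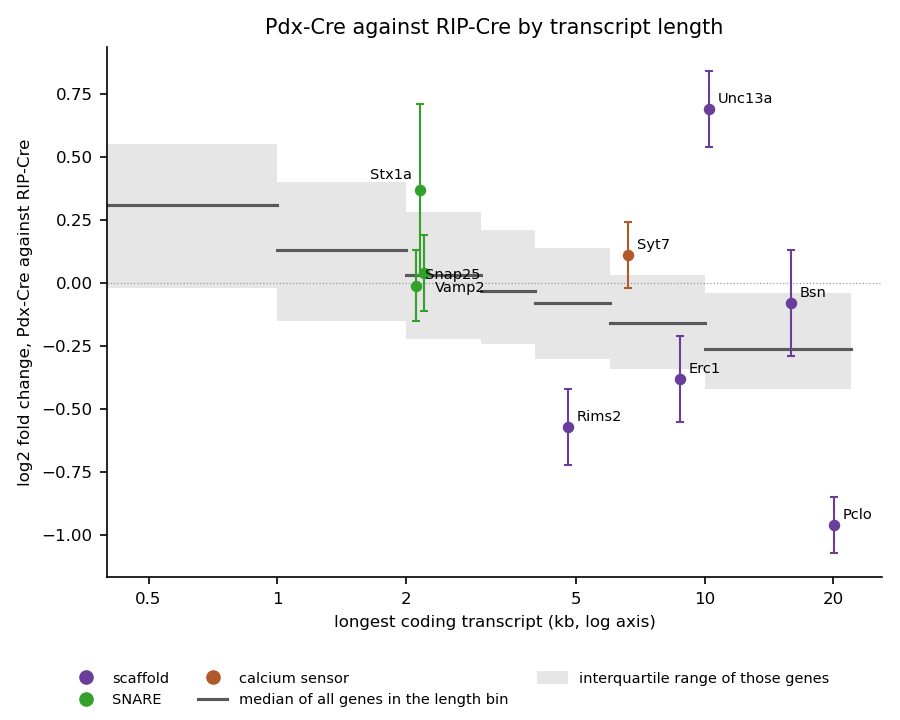
Log2 fold change of Pdx-Cre against RIP-Cre libraries (vertical axis) by length of the longest coding transcript in kb (log axis). Points with SE bars are the 9 genes and grey marks the median and interquartile range of all genes per length bin, with Pclo at -0.96, Rims2 at -0.57 and Unc13a at 0.69 farthest outside the boxes.

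The Pdx-Cre and RIP-Cre libraries also differed in cell type markers. The summed level of the 4 alpha cell markers was 277 to 35850 FPKM in Pdx-Cre and 157 to 1019 in RIP-Cre libraries, that of the 2 delta cell markers 752 to 13650 and 414 to 1298, and that of the 6 acinar markers 0 to 178 and 0 to 5.14. Ppy was at 128 to 8978 and 97.4 to 777 FPKM. Of the 7 beta cell markers with a usable value, Slc2a2 (8.61 to 24.6 FPKM in Pdx-Cre, 100 to 227 in RIP-Cre), Ucn3 (69.9 to 302, 418 to 795) and Nkx6-1 (25.8 to 41.1, 57.2 to 97.1) were lower in every Pdx-Cre library. Pdx1 and Mafa were lower with overlapping ranges (log2 fold change -0.98 and -1.24). Iapp (0.21 ± 0.38) and G6pc2 (-0.42 ± 0.27) did not pass (adjusted p of limma 0.787 and 0.348). The beta cell sum, mostly Iapp, overlapped, at 71480 to 115100 FPKM in Pdx-Cre and 35370 to 127900 in RIP-Cre libraries. In the Pdx-Cre ALDH+ libraries the alpha cell sum was 277 to 5829 FPKM and in the Pdx-Cre ALDH- libraries 9553 to 35850. The part of other cell types in the cre difference was not tested, and the cre driver cannot be told apart from anything else that differed between these animals. In bulk libraries of sorted cells, fewer cells of a type and less RNA per cell cannot be told apart.

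Of a list of 95 other exocytosis genes, grouped by role, 68 passed the filter on low values. No listed gene passed the adjusted threshold of limma for ALDH class in either genotype, for genotype in either ALDH class or for the interaction. The study's own test of read counts (DESeq) called Syp and Cadps higher in control ALDH+ than ALDH- cells, along with Pclo and Snap25. The control estimates here had the same sign, with log2 fold changes of 0.51 ± 0.23 for Syp and 0.59 ± 0.20 for Cadps. The lack of a call in limma therefore does not show that these genes were unchanged. At an unadjusted p under 0.05, 6 of the 68 were found for ALDH class in controls and 4 in knockouts, where 14.3% and 13.1% of all genes were. For genotype 4 were found in ALDH- and 5 in ALDH+ cells (5.78% and 6.6% of all genes), and 1 for the interaction (4.23%). Between cre drivers 5 of the 68 were higher and 5 lower in Pdx-Cre libraries, against 5.68% and 4.05% of all genes. The 4 lower genes with the smallest p were Sytl4, a Rab27 effector on insulin granules (log2 fold change -1.24, adjusted p = 0.000133), Cadps, a granule priming factor (-0.87, 0.000313 in the same test), the complexin Cplx2 (-0.72, 0.00969) and Exph5, another Rab27 effector (-0.55, 0.0112). Sytl4 was at 26.1 to 44.6 FPKM in Pdx-Cre and 58.8 to 110 in RIP-Cre libraries, and Cadps at 18.4 to 31.7 and 36.5 to 67.4, with no overlap for either gene (0.906% of all genes in this direction). The 4 higher genes with the smallest p were Vamp8 (0.68, adjusted p = 0.00964), Scamp5 (0.92, 0.0131), Syt4 (0.49, 0.0136) and Syt5 (0.66, 0.0166). Of the 12 listed scaffold genes tested, 10 had a positive ALDH estimate in controls (median 0.20) and 11 in knockouts (median 0.18), against 3 of 10 and 7 of 10 listed SNARE genes. Over all 11253 genes tested, 5366 were positive in controls and 5531 in knockouts. Transcript length was not taken into account in these counts. Transcripts of 6000 to 10000 bases had a median of 0.24 in controls and 0.11 in knockouts over all genes, so no effect of role is read from them.

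**Figure D5:**
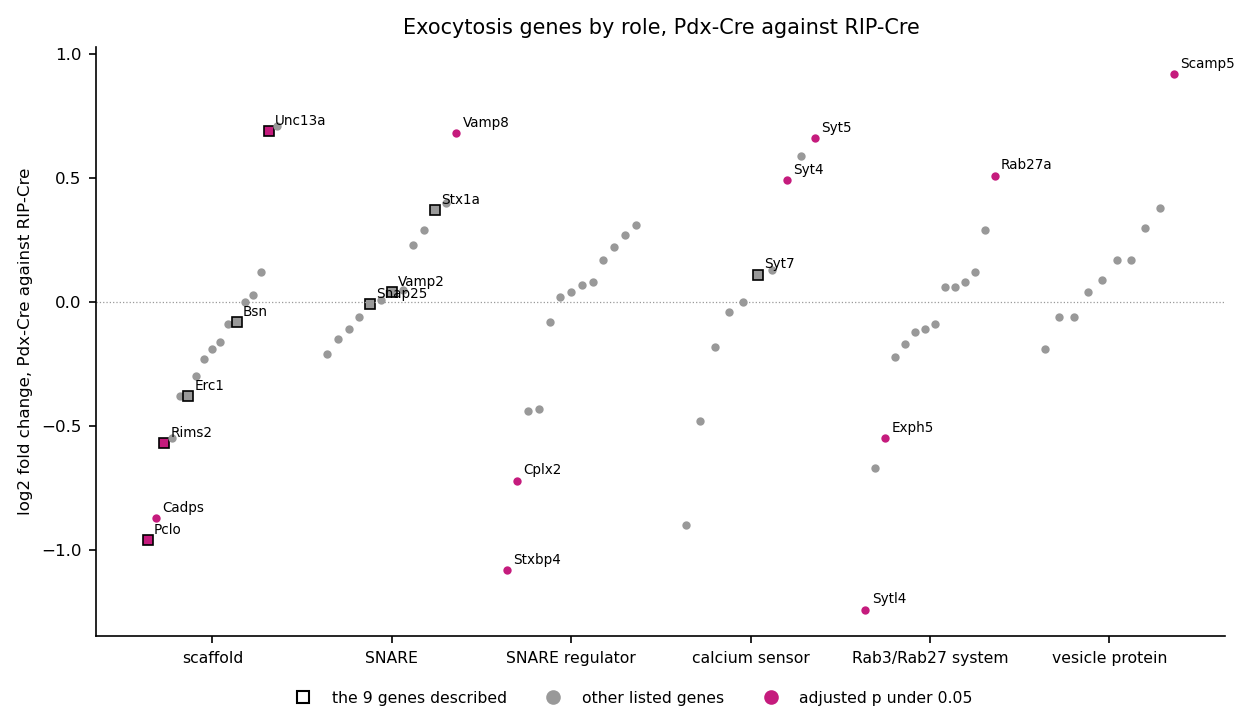
Log2 fold change of Pdx-Cre against RIP-Cre libraries (vertical axis) for the 9 genes (squares) and the 68 other exocytosis genes tested (circles), grouped by role, with genes past the adjusted threshold of 0.05 in colour. Both directions occur among the coloured genes, from -1.24 for Sytl4 to 0.92 for Scamp5.

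Close relatives of the 9 genes were measured at very different levels. Rims1, the main neuronal Rim gene, was listed at 0 to 0.293 FPKM and Rims3 at 0.370 to 11.7. Unc13b, another priming gene of the Unc13 family, was at 6.86 to 19.1 FPKM, in the same range as Unc13a, and Erc2 at 0.951 to 3.46. Among syntaxins, Stx3 (16.4 to 33.2 FPKM) and Stx4a (20.1 to 51.2) were above Stx1a in all libraries. Snap23 was at 23.9 to 78.6 FPKM, below Snap25 in every library. Vamp8 (60.5 to 190 FPKM) and Vamp3 (38.1 to 68.5) were abundant beside Vamp2, while Vamp1 was at 0 to 3.69.

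Correlations among the 9 genes over the 15 libraries were taken on log2 values and are given as a description, since the libraries share ALDH class, genotype and cre driver. Among the scaffolds, the Pearson r of Pclo was 0.83 with Rims2 and 0.80 with Erc1, and that of Rims2 with Erc1 was 0.64. Unc13a had an r of -0.62 with Rims2, -0.33 with Pclo, -0.17 with Erc1 and 0.19 with Bsn. Bsn had weak correlations with the other scaffolds, at 0.34 with Pclo, 0.37 with Erc1 and 0.08 with Rims2. Snap25 had an r of 0.76 with Syt7, 0.68 with Bsn and 0.31 with its partner Vamp2, and Vamp2 one of -0.03 with Pclo. Over all genes tested, those most like Pclo over the 15 libraries were Dmxl2 (r = 0.962), Pcm1 (0.950), Pik3r1 (0.942), Tpr (0.934) and Guf1 (0.931). Those most like Snap25 were Rps6kb1 (0.921), Ankhd1 (0.885), Hivep3 (0.880), Pde10a (0.876) and 5330434G04Rik (0.871), and those most like Vamp2 were Nhsl2 (0.874), Sirt6 (0.785), 1700123O20Rik (0.780), Reck (0.772) and Wbp4 (0.770).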

How the data were processed

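RNA of sorted RFP+ islet cells was enriched for poly-A transcripts and made into Illumina TruSeq libraries. Per the labels, base calling used bcl2fastq 1.8.4 and alignment used TopHat2 2.0.4 against mm9. The deposited gene tables hold FPKM with confidence bounds in the column layout of Cufflinks, made by the authors for each library. The version of the quantifier, the annotation and strand handling are not given in the sources used here, and the count tables that the study tested with DESeq were not used here. FPKM are not counts, so a test on a log scale was used.

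From the 23699 gene lines, 712 whose symbol was repeated and 63 whose estimate was marked as failed or too deep were dropped, Ins1 and Ins2 among the latter. The fragments that the confidence bounds imply summed to 6718758 to 9603926 per library. They came out within 0.02 of a whole number for 67.0% of values under 500, too few for a count test. Libraries were put on a common scale with trimmed means of log ratios, without weights (factors 0.918 to 1.046), genes with a mean of at least 1 FPKM were kept, and log2(FPKM + 1) was fitted with limma 3.58.1 in R 4.3.3 (4 groups and a cre term over all 15 libraries, trend in the prior variance, two-sided, Benjamini-Hochberg over 11253 genes). The pseudocount understates fold changes of low genes. The fit was tested on simulated data. Named genes were the 9 genes, relatives of them (not every listed gene is reported here), the up to 4 listed exocytosis genes with the smallest p in each direction, and the 5 genes most correlated with Pclo, Snap25 and Vamp2. The members and lists were chosen with earlier results of these data known. The labels do not say which animals gave which library, so p-values measure the spread between libraries.

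Alternatives were other pseudocounts, scalings and filters, removal of a length trend, no cre term, each cre driver alone, only the groups compared, a replicate block and each library left out. Strata of the cre comparison and a block within cre driver were added after seeing the data. Gene names were matched by symbol, and lengths were found for 99% of the genes tested.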

Additional observations from a re-analysis of the deposited data

How the results depend on the processing

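The choice of the 9 genes used the control ALDH contrast, so nothing is read from the number of them past its threshold (1, Pclo), which was 0 with the length trend removed, with no cre term and with RIP-Cre libraries alone, 2 (Pclo and Snap25) with only the groups compared, and 0 to 1 with 1 library left out. In the cre contrast 3 of the 9 passed, and 1 (Pclo) passed in ALDH-, ALDH+, control or knockout libraries alone, sets with fewer libraries, while leaving out 1 library left 2 or 3. No genotype or interaction count of the 9 genes changed from 0.

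Estimates that changed sign had not passed the threshold. In the ALDH contrasts, Bsn in knockouts was at -0.14 with the length trend removed, Stx1a in knockouts and Vamp2 in controls at -0.28 and 0.03 with RIP-Cre libraries alone, Stx1a in controls at 0.13 without control ALDH+ replicate 1, and Vamp2 in controls at 0.03 without control ALDH+ replicate 2. In the other contrasts, without rescaling, Snap25 (knockout against control, ALDH+) was at -0.01 and Vamp2 (cre) at 0. With the length trend removed, Snap25 in that contrast was at -0.01, Bsn at 0.08, Unc13a (knockout against control, ALDH-) at -0.07, Syt7 (interaction) at 0.02, and Bsn and Vamp2 (cre) at 0.20 and -0.01. With RIP-Cre libraries alone, Stx1a (knockout against control, ALDH-) was at 0.39, Erc1, Snap25 and Syt7 (ALDH+) at -0.28, -0.02 and 0, and Erc1 (interaction) at -0.13. With only the groups compared, Unc13a (ALDH-) was at 0. For cre, Stx1a was at -0.14 in ALDH- libraries alone, Bsn, Snap25 and Vamp2 at 0.07, 0.13 and -0.04 in ALDH+ libraries alone, and Snap25 and Vamp2 at 0.16 and -0.11 in controls alone. With 1 library left out, knockout against control ranged from -0.08 to 0.14 for Unc13a and from -0.43 to 0.06 for Stx1a in ALDH- cells, and from -0.21 to 0.32 for Erc1, -0.06 to 0.12 for Snap25 and -0.08 to 0.14 for Syt7 in ALDH+ cells. The interaction ranged from -0.22 to 0.01 for Rims2, -0.02 to 0.52 for Erc1 and -0.21 to 0.01 for Syt7, and cre from -0.08 to 0.08 for Snap25 and -0.08 to 0.15 for Vamp2. The causes were not tested.

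Over all genes, calls in the control ALDH contrast went from 137 to 0 with no cre term and 449 with only the groups compared. They were 0 without any 1 of the 3 control ALDH- libraries, 1 without control ALDH+ replicate 1, 9 without knockout ALDH- replicate 1, and 245, 79 and 81 without knockout ALDH+ replicates 3, 4 and 5. Cre calls went from 1095 to 74 in ALDH+ libraries alone, and to 706 and 697 without control ALDH+ replicates 1 and 2, 705 without knockout ALDH- replicate 5 and 704 without knockout ALDH+ replicate 5. Knockout against control in ALDH+ cells and the interaction went from 0 to 33 and 16 with no filter. Knockout libraries with the same replicate number did not deviate together (r from -0.044 to 0.070). The 2 control ALDH+ libraries deviate by equal and opposite amounts in the fit, and the control libraries numbered 2 differ in cre driver. The controls therefore cannot show whether libraries were paired. A replicate block (consensus correlation 0.041, or 0.059 within cre driver) changed no call of the 9 genes. With it the log2 fold change of Rims2 between cre drivers was -0.56 (adjusted p of limma 0.025). Of the 18 groups of 5 libraries checked, none held a value far from the rest by Dixon's test. Control groups of 3 and 2 libraries limit the genotype and ALDH contrasts, and low fragment numbers limit Stx1a.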
